A study of Mus musculus with 6 samples.

Results

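The 10 genes described here encode the angiopoietins Angpt1 and Angpt2, their receptor Tek (TIE2) with its relative Tie1, the vascular endothelial growth factors Vegfa and Vegfb, the VEGF receptors Kdr (VEGFR2) and Flt1 (VEGFR1), and the endothelial junction proteins Pecam1 and Cdh5 (VE-cadherin). They were taken by gene name from the deposited expression table, which holds 54532 genes, and all 10 were found. RNA was sequenced from the hearts of 6 mice in 2 groups of 3. Ctrl hearts came from Mrps5 fl/fl mice, in which the gene of the mitochondrial ribosomal protein MRPS5 is flanked by loxP sites, and cKO hearts from Mrps5 fl/fl; MCM mice. MCM is MerCreMer, a Cre recombinase that tamoxifen activates and that the αMHC promoter restricts to cardiomyocytes. Mice of both groups received tamoxifen at 45 mg/kg/day on 5 days from 8 weeks of age, and hearts were collected 12 weeks later. Because Ctrl mice lacked the MCM transgene, effects of Cre with tamoxifen and effects of the deletion cannot be told apart. The labels say heart, whereas the study's methods say ventricular tissue of 12-week-old littermates.

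Blood vessels of the heart are kept quiescent by angiopoietin-1, which cells around the endothelium secrete and which activates TEK on endothelial cells. Angiopoietin-2, which endothelial cells release themselves, mostly opposes it, and TIE1 forms complexes with TEK. VEGFA drives endothelial growth and permeability mainly through KDR, while FLT1 binds VEGFA tightly with weaker signalling and is also the receptor of VEGFB, a ligand abundant in heart muscle. PECAM1 and VE-cadherin hold endothelial cells together at their junctions and mark the lineage. The Cre acts in cardiomyocytes, so the comparison shows RNA levels of largely endothelial genes in hearts whose neighbouring muscle cells were targeted.

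Reads assigned to genes numbered 15989322 to 24875499 per heart. The targeted gene Mrps5 measured 5.20, 6.45 and 6.33 FPKM (fragments per kilobase of gene, scaled to library size) in replicates 1, 2 and 3 of Ctrl and 1.12, 1.23 and 1.31 FPKM in those of cKO, so the groups did not overlap and the cKO mean was 20.4% of the Ctrl mean. Cardiomyocyte genes were abundant in every heart, as the label requires. In cKO replicate 2, Xist was at 10.7 FPKM and the Y-linked genes at 0, whereas the other hearts had at most 0.127 FPKM of Xist, although the study's methods describe male mice. Atrial genes varied within both groups: Myl7, the atrial myosin light chain, was at 679, 98.6 and 18.1 FPKM in replicates 1, 2 and 3 of Ctrl and 71.8, 170 and 495 FPKM in those of cKO. Values without cKO replicate 2, and without Ctrl replicate 1 and cKO replicate 3 together, are given beside the results of the 10 genes that they change.

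Across the 10 genes, the prevailing difference was a lower level in cKO hearts. Of the 9 genes that averaged at least 0.5 FPKM, 7 fell (Angpt1, Tek, Tie1, Vegfb, Flt1, Pecam1 and Cdh5), none rose, and 2 (Vegfa and Kdr) did not pass the threshold of an adjusted p under 0.05 (limma on log2(FPKM + 1), Benjamini-Hochberg adjustment over 12944 genes). At an unadjusted p under 0.05, and with voom on recovered reads, the counts were likewise 7 lower and 0 higher. Among all genes tested 33.3% passed, 17.0% as lower and 16.3% as higher. In 6 of the 9 genes the cKO and Ctrl hearts did not overlap, which was the case for 51.2% of all genes. The median log2 fold change of the 9 was -0.63, against -0.02 over all genes. FPKM of whole-heart RNA is a relative level and not a count per cell. The deposited values had also been scaled between samples, to library sizes 0.913 to 0.980 times the recovered reads in Ctrl and 1.06 times in cKO. Under median-of-ratios scaling 6 of the 9 were lower, and likewise 6 under scaling without mtDNA-encoded genes. The number of cells that make these RNAs, the RNA per cell and the share of other cells therefore cannot be told apart. With Ctrl replicate 1 and cKO replicate 3 left out together, 5 of the 9 remained past the threshold, all lower.

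**Figure D1:**
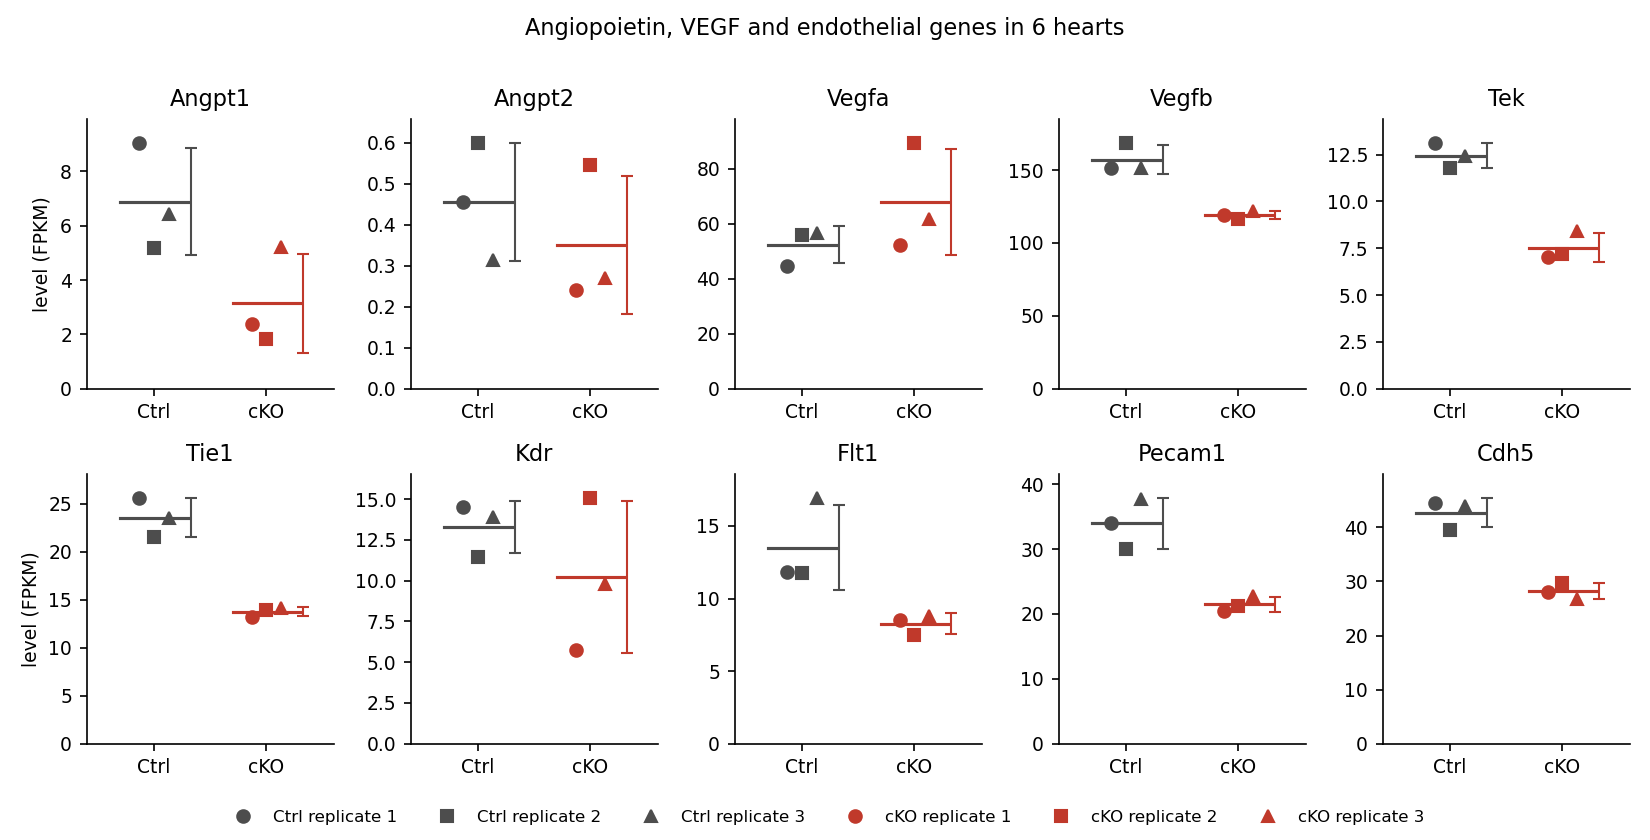
Level (FPKM, linear axis from 0) of each of the 10 genes in the 3 Ctrl hearts (grey) and 3 cKO hearts (red). Symbols mark the replicate, horizontal lines the group mean and error bars the SD; Tek, Tie1, Vegfb, Flt1, Pecam1 and Cdh5 separate the groups completely, while Angpt1, Angpt2, Vegfa and Kdr do not.

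The levels spanned a wide range, from Vegfb at 157 ± 9.89 FPKM to Angpt2 at 0.456 ± 0.143 FPKM in Ctrl (mean ± SD, n = 3). Between them lay, in falling order of the Ctrl mean, Vegfa, Cdh5, Pecam1, Tie1, Flt1, Kdr, Tek and Angpt1. Hearts of Flt1 and Kdr overlapped in level within Ctrl, as did those of Kdr and Tek, and all other neighbours in this order were separate. In cKO the order was the same except that Kdr stood above Flt1, and the hearts of Tie1, Kdr, Flt1 and Tek overlapped from each gene to the next. FPKM is a level per gene length, so these orders compare genes on that scale.

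To see which letters stand before the starts of these genes, promoters from RefSeq (mouse build GRCm38.p6) were searched over the 250 bases before the start. Windows were found for 6 of the 10 genes (Tek, Tie1, Kdr, Flt1, Vegfa and Vegfb). Angpt1, Angpt2, Pecam1 and Cdh5 had no entry. The ETS core, the letters AGGAAG or CGGAAG on either strand, is bound by ETS factors that are active in endothelium. The promoters of the receptors Tek (chr4:94739039-94739288, plus strand) and Flt1 (chr5:147726012-147726261, minus strand) are shown because both receptors fell, with any match to this core in capitals:
Tek: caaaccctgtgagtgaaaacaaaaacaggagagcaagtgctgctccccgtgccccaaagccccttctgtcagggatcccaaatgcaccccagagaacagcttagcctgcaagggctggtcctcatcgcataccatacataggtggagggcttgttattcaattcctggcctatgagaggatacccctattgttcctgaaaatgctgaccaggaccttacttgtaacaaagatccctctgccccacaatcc
Flt1: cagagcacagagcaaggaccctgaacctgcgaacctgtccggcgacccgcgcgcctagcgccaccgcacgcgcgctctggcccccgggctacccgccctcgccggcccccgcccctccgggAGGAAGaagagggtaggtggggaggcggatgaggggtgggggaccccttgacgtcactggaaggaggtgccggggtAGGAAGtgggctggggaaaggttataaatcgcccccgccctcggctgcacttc
Flt1 held 2 matches, starting 129 and 53 bases before the start, and Tek held none. The promoter of Tie1 held 2, starting 232 and 219 bases before the RefSeq start, and those of Kdr, Vegfa and Vegfb none, so 2 of the 6 windows held this core. The Tie1 window spans 118489850 to 118490099 on the minus strand, whereas the gene in the expression data reaches 118490061. Most of this window therefore lies inside the gene, whereas both matches lie just outside it. Of 32851 promoter windows of the same length 39.2% held the ETS core.

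The core of hypoxia response elements, ACGTG or GCGTG on either strand, was searched likewise, with any match in capitals in the promoters of the ligands Vegfa (chr17:46032378-46032627, minus strand) and Vegfb (chr19:6987652-6987901, minus strand), which are shown because Vegfa is a textbook target of hypoxia-inducible factors and Vegfb the ligand that fell:
Vegfa: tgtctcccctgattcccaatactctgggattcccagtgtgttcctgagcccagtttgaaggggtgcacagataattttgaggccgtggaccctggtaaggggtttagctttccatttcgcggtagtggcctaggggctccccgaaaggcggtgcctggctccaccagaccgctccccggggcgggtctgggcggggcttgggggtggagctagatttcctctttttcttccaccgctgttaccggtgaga
Vegfb: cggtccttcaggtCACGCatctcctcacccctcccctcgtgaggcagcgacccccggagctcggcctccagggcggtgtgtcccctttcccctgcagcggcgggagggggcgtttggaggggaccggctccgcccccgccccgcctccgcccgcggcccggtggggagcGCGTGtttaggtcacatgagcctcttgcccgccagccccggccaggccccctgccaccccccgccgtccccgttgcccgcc
Vegfb held 2 matches, starting 237 and 81 bases before the start, and the Vegfa window held none. Kdr held 2 and Flt1 held 1, and Tek and Tie1 held none. Among all 32851 windows 38.6% held this core. The element TGATGNAA, bound by C/EBP and ATF factors, was in none of the 6 windows and in 3.45% of all. These matches describe letters and not binding.

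Angpt1 (ENSMUSG00000022309, GRCm38 chromosome 15, 42424723 to 42676977, minus strand), the activating ligand of TEK, had the largest fitted fall of the 9 genes and also the least stable call. It measured 9.04, 5.19 and 6.44 FPKM in replicates 1, 2 and 3 of Ctrl and 2.38, 1.83 and 5.21 FPKM in those of cKO. Replicates 1 and 2 of cKO lay below every Ctrl heart, whereas cKO replicate 3 lay just above Ctrl replicate 2, so the groups overlapped. The mean went from 6.89 ± 1.96 to 3.14 ± 1.81 FPKM, 45.6% of Ctrl, with a log2 fold change of -0.99 (SE 0.309, 95% interval -1.72 to -0.25, limma adjusted p = 0.0473). An exact permutation test over the hearts gave p = 0.2 (two-sided). The call was lost in 8 of 15 alternative analyses, with adjusted p up to 0.131, among them median-of-ratios scaling (adjusted p = 0.0519), scaling without mtDNA-encoded genes (0.0666) and the fits without Ctrl replicate 1, 2 or 3 (0.131, 0.0635 and 0.104) or without cKO replicate 1 or 2 (0.127 and 0.108). Its log2 fold change stayed negative throughout, between -1.32 and -0.75.

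Within each group, Angpt1 was highest in the heart with the most Myl7, which was Ctrl replicate 1 at 679 FPKM of Myl7 and cKO replicate 3 at 495 FPKM. The remaining hearts went the other way. Ctrl replicate 3 had less Myl7 than Ctrl replicate 2 but more Angpt1, and cKO replicate 2 had more Myl7 than cKO replicate 1 but less Angpt1. All 5 atrial genes listed, Myl7, Myl4, Sln, Nppa and Bmp10, were detected in both of these hearts, and their summed level ran from 128 to 2054 FPKM in Ctrl and from 575 to 1675 FPKM in cKO. With both hearts left out, the log2 fold change of Angpt1 was -1.13 (limma adjusted p = 0.0185), and the 2 remaining hearts of each group did not overlap. Without cKO replicate 3 alone it was -1.32 (adjusted p = 0.00980). The part of atrial tissue in the Angpt1 values was not tested beyond these fits. Tie1 too was highest within each group in these 2 hearts, at 25.6 FPKM in Ctrl replicate 1 and 14.1 FPKM in cKO replicate 3, but its groups did not overlap. The same held for Tek, at 13.1 FPKM in Ctrl replicate 1 and 8.42 FPKM in cKO replicate 3, again without overlap.

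**Figure D2:**
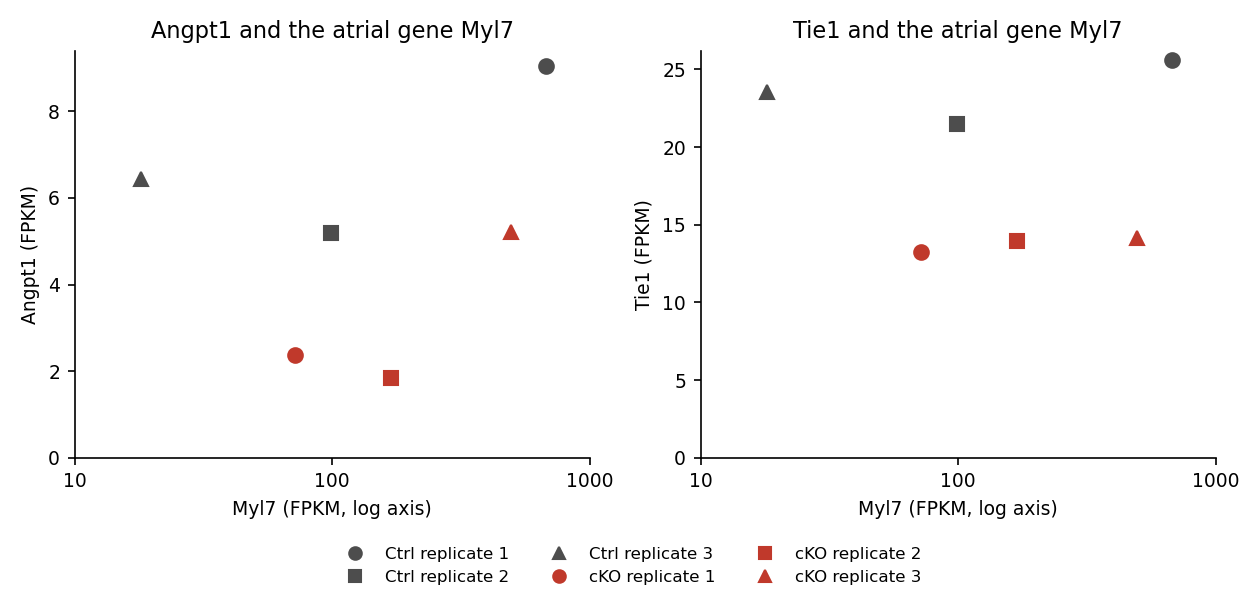
Angpt1 (left) and Tie1 (right) in FPKM on a linear axis from 0, plotted against the atrial gene Myl7 in FPKM on a log axis, for the 3 Ctrl hearts (grey) and 3 cKO hearts (red). Angpt1 is highest within each group in the heart with the most Myl7 (9.04 FPKM in Ctrl replicate 1 and 5.21 FPKM in cKO replicate 3), and so is Tie1 (25.6 and 14.1 FPKM), whose groups do not overlap.

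Angpt2 (ENSMUSG00000031465, chromosome 8, 18690263 to 18741562, minus strand), the antagonist ligand, was barely detected. It was at 0.455, 0.599 and 0.314 FPKM in Ctrl and 0.240, 0.546 and 0.269 FPKM in cKO replicates 1, 2 and 3, which corresponds to between 15 and 47 reads per heart. The groups overlapped over most of their range. Its mean over all hearts was below the minimum of 0.5 FPKM, so it was left out of the main test. An exact permutation test gave p = 0.5 (n = 3 per group), and without the filter the limma log2 fold change was -0.11 (SE 0.116, adjusted p = 0.605). The gene lies inside Mcph1 on the opposite strand (mean 0.828 FPKM), and the strand used for counting was not stated, so reads of the 2 genes may not be separate. A change in Angpt2 was therefore not detectable at this depth.

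The receptors of the angiopoietin system fell with little spread. Tek (ENSMUSG00000006386, chromosome 4, 94739289 to 94874976, plus strand), the tyrosine kinase that binds both angiopoietins, measured 13.1, 11.8 and 12.4 FPKM in the Ctrl hearts and 7.02, 7.17 and 8.42 FPKM in the cKO hearts. Every cKO heart was below every Ctrl heart. The mean of 7.54 ± 0.768 FPKM was 60.6% of the Ctrl mean of 12.4 ± 0.648 FPKM, a log2 fold change of -0.66 (SE 0.0879, limma adjusted p = 0.00287). Tie1 (ENSMUSG00000033191, chromosome 4, 118471191 to 118490061, minus strand), the orphan partner receptor, measured 25.6, 21.5 and 23.6 FPKM in the Ctrl hearts and 13.2, 13.9 and 14.1 FPKM in the cKO hearts. Again the groups were fully apart, and the cKO hearts lay between 56.2% and 60.0% of the Ctrl mean. Its log2 fold change was -0.73 (SE 0.0828, adjusted p = 0.00181). Both receptors passed the threshold in all 15 alternative analyses. The log2 ratio of Tek to Tie1 within a heart differed by 0.07 between groups (exact permutation p = 0.4, n = 3 per group).

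Other genes of the angiopoietin and TIE system, listed apart from the 10, followed the same direction in part. Of 5 tested, 3 fell (60.0%, against 17.0% of all genes), none rose and 2 did not pass, with a median log2 fold change of -0.53. At an unadjusted p under 0.05, 3 fell and 1 rose, and with voom 3 and 0. Ptprb, the endothelial phosphatase VE-PTP that dephosphorylates TEK, measured 12.8, 13.9 and 14.2 FPKM in the Ctrl hearts and 7.02, 6.47 and 7.84 FPKM in the cKO hearts, without overlap (log2 fold change -0.85, limma adjusted p = 0.00143). Foxo1, a transcription factor that TEK signalling restrains through AKT, fell by 0.53 on the log2 scale (adjusted p = 0.00379), and Klf2, a flow-responsive factor of quiescent endothelium, by 0.58 (adjusted p = 0.0350). Dok2, an adaptor of TEK, had a log2 fold change of 0.29 (adjusted p = 0.0524), which passed the threshold as higher under median-of-ratios scaling, under scaling without mtDNA-encoded genes, without the eBayes trend and without cKO replicate 2. Svep1, a matrix protein needed for lymphatic growth, had 0.14 (adjusted p = 0.210). Angpt4, a further angiopoietin, was at most 0.734 FPKM in any heart and was not tested.

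The VEGF ligands did not move alike. Vegfb (ENSMUSG00000024962, chromosome 19, 6982473 to 6987651, minus strand) was the most abundant of the 10 genes, with 151, 168 and 151 FPKM in the Ctrl hearts and 119, 117 and 122 FPKM in the cKO hearts. All cKO hearts lay below all Ctrl hearts, within 74.3% to 77.8% of the Ctrl mean. The fitted log2 difference was -0.39 (SE 0.0759, limma adjusted p = 0.00936). With Ctrl replicate 1 and cKO replicate 3 left out together it was -0.43 with an adjusted p of 0.0668, the only alternative in which its call was lost. Vegfa (ENSMUSG00000023951, chromosome 17, 46016993 to 46032369, minus strand) measured 44.8, 56.0 and 56.4 FPKM in the Ctrl hearts and 52.2, 89.2 and 61.8 FPKM in the cKO hearts. Replicates 2 and 3 of cKO exceeded every Ctrl heart and cKO replicate 1 did not. The means were 52.4 ± 6.61 and 67.7 ± 19.2 FPKM, a log2 fold change of 0.34 (SE 0.199, 95% interval -0.14 to 0.81, adjusted p = 0.235), which did not pass the threshold. Without cKO replicate 2, the heart with Xist, the log2 fold change was 0.12 (adjusted p = 0.522).

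Set against each other within a heart, the VEGF ligands separated the groups. The log2 ratio of Vegfa to Vegfb was -1.73, -1.57 and -1.41 in Ctrl and -1.18, -0.38 and -0.97 in cKO replicates 1, 2 and 3. Every cKO heart thus had relatively more Vegfa than every Ctrl heart, by 0.73 on average. The exact permutation p was 0.1, the smallest that 3 hearts against 3 allow, and 0.5 after adjustment over the 10 ratios computed. Relative to the endothelial pair, the mean log2 level of Pecam1 and Cdh5, Vegfa stood at 0.19, 0.69 and 0.46 in Ctrl and at 1.09, 1.79 and 1.29 in cKO. These groups did not overlap either, and the difference was 0.94 (exact permutation p = 0.1, adjusted p = 0.5). Leaving out each heart in turn gave differences of 0.50 to 0.89 for the Vegfa to Vegfb ratio and of 0.74 to 1.09 for Vegfa over the pair. Vegfa itself overlapped between the groups, whereas Vegfb, Pecam1 and Cdh5 fell. Both ratios include these falls, so they are not separate evidence of more Vegfa.

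Of the VEGF receptors Flt1 fell, and Kdr did not pass the threshold. Flt1 (ENSMUSG00000029648, chromosome 5, 147561604 to 147726011, minus strand), the receptor shared by VEGFA and VEGFB, measured 11.9, 11.8 and 16.9 FPKM in the Ctrl hearts and 8.53, 7.46 and 8.82 FPKM in the cKO hearts. No cKO heart reached a Ctrl heart, and Ctrl replicate 3 stood above the other Ctrl hearts. The mean of 8.27 ± 0.714 FPKM was 61.2% of the Ctrl mean of 13.5 ± 2.95 FPKM, with a log2 fold change of -0.63 (SE 0.145, limma adjusted p = 0.0171). Without Ctrl replicate 3 it was -0.47 (adjusted p = 0.0248), and with Ctrl replicate 1 and cKO replicate 3 left out together -0.75, no longer past the threshold (adjusted p = 0.0608).

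Kdr (ENSMUSG00000062960, chromosome 5, 75932827 to 75978458, minus strand), the main signalling receptor of VEGFA, measured 14.5, 11.5 and 13.9 FPKM in the Ctrl hearts and 5.75, 15.1 and 9.78 FPKM in the cKO hearts. The cKO hearts were spread from 43.3% to 113% of the Ctrl mean, and cKO replicate 2 exceeded every Ctrl heart while the other cKO hearts lay below all of them. These values rested on 879 reads in cKO replicate 1 and 3174 reads in cKO replicate 2. In limma its log2 fold change came to -0.43 (SE 0.290, 95% interval -1.12 to 0.25, adjusted p = 0.289). Without cKO replicate 2 it was -0.74 and past the threshold (adjusted p = 0.0423), and without cKO replicate 1 it was -0.11 (adjusted p = 0.693). The heart with high Kdr was also the heart with the highest Vegfa and with Xist, and the part of sex or of this animal in these values was not tested. Relative to the endothelial pair, Kdr stood at -1.37, -1.51 and -1.49 in Ctrl and at -1.89, -0.71 and -1.25 in cKO on the log2 scale, so that the Ctrl hearts lay between the cKO hearts.

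The endothelial junction genes gave the level against which the receptors can be read. Pecam1 (ENSMUSG00000020717, chromosome 11, 106654217 to 106750628, minus strand) measured 34.1, 30.0 and 37.8 FPKM in the Ctrl hearts and 20.5, 21.2 and 22.7 FPKM in the cKO hearts. Its groups did not overlap, and the cKO mean reached 63.3% of that in Ctrl (limma log2 fold change -0.63, SE 0.0986, adjusted p = 0.00449). Cdh5 (ENSMUSG00000031871, chromosome 8, 104101625 to 104144511, plus strand) measured 44.6, 39.6 and 43.9 FPKM in the Ctrl hearts and 28.1, 29.8 and 26.8 FPKM in the cKO hearts. Here too every cKO heart was lower, with a cKO mean at 66.1% of Ctrl (log2 fold change -0.58, SE 0.0798, adjusted p = 0.00306). Both genes passed the threshold in all 15 alternative analyses.

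Divided by this endothelial pair within each heart, the receptors overlapped between the groups. The differences between groups in log2 ratio were -0.13 for Tie1 (exact permutation p = 0.2), -0.05 for Tek (p = 0.7), -0.03 for Flt1 (p = 1) and 0.17 for Kdr (p = 0.7), each with n = 3 per group. For Tie1 the ratios were -0.59, -0.66 and -0.76 in Ctrl and -0.81, -0.81 and -0.76 in cKO replicates 1, 2 and 3. The ratio of Angpt1 to the pair differed by -0.38 (p = 0.4, exact permutation), of Angpt2 to Angpt1 by 0.88 (p = 0.2), and of Flt1 to Kdr by -0.20 (p = 0.8). Adjusted over the 10 ratios, no p was below 0.5. With 3 hearts per group no exact p could have been below 0.1, so equal ratios are not shown by these tests. Leaving out cKO replicate 2 turned the sign of the Kdr ratio to -0.12 and of the Flt1 to Kdr ratio to 0.17.

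**Figure D3:**
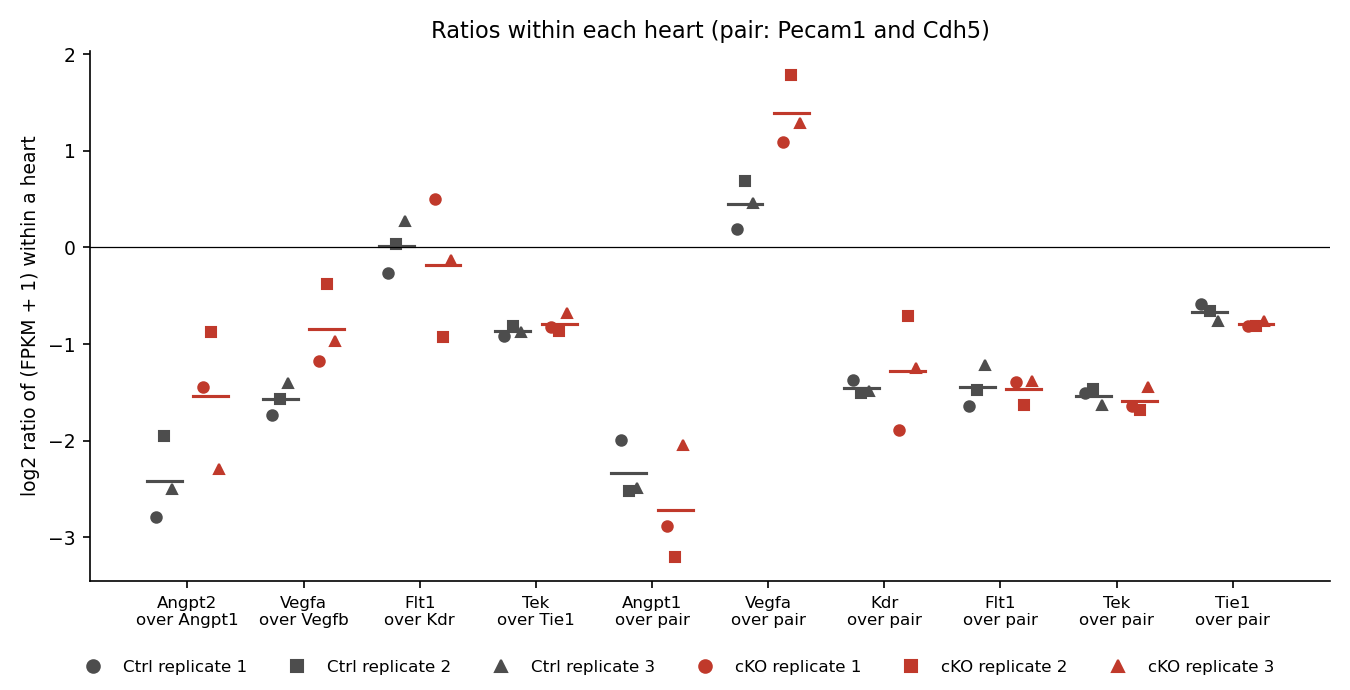
Log2 ratio of (FPKM + 1) within each heart for 10 gene ratios, with 3 Ctrl hearts in grey, 3 cKO hearts in red, symbols for replicates and horizontal lines for group means; pair is the mean log2 level of Pecam1 and Cdh5. Only Vegfa over Vegfb (Ctrl -1.73 to -1.41, cKO -1.18 to -0.38) and Vegfa over the pair (Ctrl 0.19 to 0.69, cKO 1.09 to 1.79) separate the groups.

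**Figure D4:**
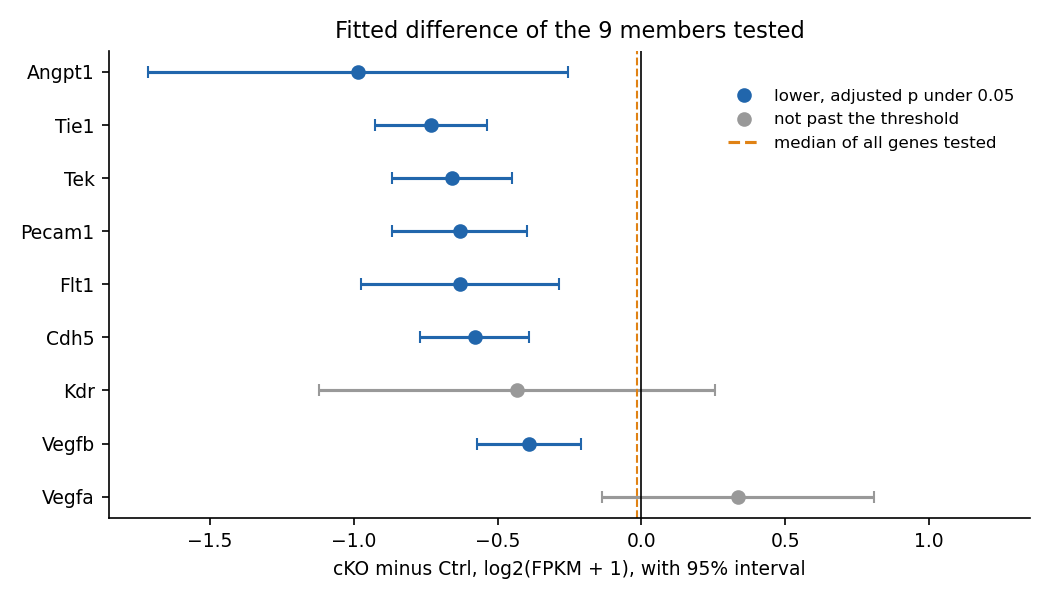
Fitted log2 fold change of cKO against Ctrl on the log2(FPKM + 1) scale for the 9 genes tested, with 95% intervals from limma; blue marks an adjusted p under 0.05, grey the others, and the dashed line the median of all genes (-0.02). Intervals of Angpt1 and Kdr are the widest, and those of Kdr and Vegfa include 0.

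To place the 10 genes among others of endothelium, 34 further endothelial genes were examined. Of these 21 fell (61.8%, against 17.0% of all genes), none rose and 13 did not pass the threshold. At an unadjusted p under 0.05, 28 fell and 0 rose, and with voom 21 and 0. Their median log2 fold change was -0.47, and 32 of the 34 values were negative. In 27 the groups did not overlap, all 27 with cKO lower, and 51.2% of all genes had no overlap in either direction. Adgrf5, an endothelial adhesion receptor, had the largest fall (31.1, 30.0 and 32.4 FPKM in Ctrl, 13.9, 11.3 and 16.3 FPKM in cKO; log2 fold change -1.13, limma adjusted p = 0.00172). Fabp4, the fatty acid binding protein of capillary endothelium and the most abundant of the list, fell by 0.91 (adjusted p = 0.00212), and Ptprb, also counted above, by 0.85. The 2 positive values, named after they were seen, were those of Cldn5, a tight junction protein (0.13, adjusted p = 0.776), and Aplnr, the apelin receptor (0.38, adjusted p = 0.553). Summed over the list, the level was 827 to 911 FPKM in Ctrl and 524 to 588 FPKM in cKO. The count of lower genes was 13 without Ctrl replicate 1 or without Ctrl replicate 3, 12 without the filter or under scaling without mtDNA-encoded genes, and 9 with Ctrl replicate 1 and cKO replicate 3 left out together.

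Markers of other cell types moved in the same hearts, and their part in the results above was not tested. Of 12 genes of pericytes and smooth muscle tested, 7 fell (58.3%) and 2 rose (16.7%), with a median of -0.51. Of all genes 17.0% fell and 16.3% rose. Rgs5, the most abundant pericyte gene of the list, measured 118, 119 and 133 FPKM in the Ctrl hearts and 53.4, 55.6 and 65.7 FPKM in the cKO hearts, without overlap (log2 fold change -1.07, limma adjusted p = 0.00113). Abcc9 and Kcnj8, the subunits of the vascular ATP-sensitive potassium channel, fell by 1.07 and 0.74 (adjusted p = 0.00168 and 0.00324), whereas the contractile actin Acta2 and the pericyte proteoglycan Cspg4 rose by 0.89 and 0.73 (adjusted p = 0.0453 and 0.00958). The summed level of the list was 241 to 262 FPKM in Ctrl and 141 to 181 FPKM in cKO. Cardiomyocyte genes also fell in 5 of 10 (median -0.59), with sums of 15615 to 19773 FPKM in Ctrl and 9574 to 16693 FPKM in cKO, which overlapped. Actc1, cardiac actin, was the most abundant of them (log2 fold change -0.20, adjusted p = 0.664), and phospholamban Pln, the calcium release channel Ryr2 and troponin I Tnni3 fell by 1.43, 0.78 and 0.64. The count of lower genes was 4 for the pericyte and smooth muscle list without Ctrl replicate 3. For the cardiomyocyte list it was 8 without cKO replicate 2 and 3 with Ctrl replicate 1 and cKO replicate 3 left out together. The higher pericyte and smooth muscle genes numbered 1 without Ctrl replicate 2, Ctrl replicate 3, cKO replicate 1 or cKO replicate 2.

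In the remaining marker lists, apart from that of fibroblasts, at most 1 gene passed. For comparison, 16.3% of all genes rose and 17.0% fell. Of 8 fibroblast genes 3 rose (37.5%), Col3a1 by 1.57, Col1a1 by 0.82 and Postn by 0.82 (limma adjusted p = 0.00328, 0.0208 and 0.00401). Dcn, the most abundant, was the 1 that fell (12.5%), by 0.59 (limma adjusted p = 0.0185). Sums of the fibroblast list were 162 to 189 FPKM in Ctrl and 163 to 195 FPKM in cKO. Of 5 leukocyte genes Csf1r fell by 0.64 (adjusted p = 0.0196), while Lyz2, the most abundant, had -0.28 (adjusted p = 0.272). Of 4 endocardial genes Nfatc1 fell by 0.27 (adjusted p = 0.0416), and Cytl1, the most abundant, had -0.93 (adjusted p = 0.0654). None of 6 lymphatic genes passed in limma (1 rose at an unadjusted p under 0.05, and 0 with voom), among them Pdpn with 0.49 (adjusted p = 0.0808) and Lyve1, the most abundant, with -0.30. None of 5 erythroid genes passed (0 at an unadjusted p under 0.05, and 0 with voom), with Hbb-bt at -0.75 and Hba-a1, the most abundant, at -0.71. The globin genes have near-identical copies that may share reads. All 5 fell when Ctrl replicate 1 and cKO replicate 3 were left out together, and 2 fell without cKO replicate 3 alone. None of 5 atrial genes passed either (0 at an unadjusted p under 0.05, and 0 with voom), and Nppa, with the largest value, had 1.65 (adjusted p = 0.176), but 1 atrial gene passed as higher without Ctrl replicate 1. The calls of Dcn and Csf1r were lost without Ctrl replicate 3, that of Dcn also with Ctrl replicate 1 and cKO replicate 3 left out together, and that of Nfatc1 without Ctrl replicate 1, Ctrl replicate 3, cKO replicate 1 or cKO replicate 2.

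The other members of the VEGF family included ligands of low abundance and the more abundant co-receptor Nrp1. Of 6 tested, 3 fell, none rose and 3 did not pass (at an unadjusted p under 0.05, 3 fell and 0 rose, and with voom 2 and 0), with a median log2 fold change of -0.38. Among all genes tested 17.0% fell, 16.3% rose and 51.2% had groups without overlap. Vegfc, a ligand of lymphatic growth, measured 2.06, 2.14 and 2.21 FPKM in the Ctrl hearts and 1.21, 1.59 and 1.59 FPKM in the cKO hearts, without overlap (log2 fold change -0.35, limma adjusted p = 0.0243). Vegfd, its close relative, fell by 0.51 (adjusted p = 0.0465), and Nrp1, the co-receptor of KDR, by 0.41 (adjusted p = 0.0453). Placental growth factor Pgf, a ligand of FLT1, had -0.59 (adjusted p = 0.145 by limma, groups without overlap). Nrp2 and Flt4, the co-receptor and receptor of lymphatic endothelium, had -0.27 and -0.12 (adjusted p = 0.232 and 0.523). These calls were fragile. None of the 3 remained without Ctrl replicate 1, without Ctrl replicate 3 or without cKO replicate 1, and the count was 1 without Ctrl replicate 2 or cKO replicate 3. It was 0 with Ctrl replicate 1 and cKO replicate 3 left out together.

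Downstream of the receptors, among 36 genes of VEGF signalling tested, 10 rose (27.8%) and 9 fell (25.0%), against 16.3% and 17.0% of all genes, with a median log2 fold change of -0.13. Hspb1, the small heat shock protein phosphorylated after VEGF stimulation, rose most (274, 310 and 174 FPKM in Ctrl, 1020, 979 and 654 FPKM in cKO; log2 fold change 1.82, limma adjusted p = 0.00324). Rcan1, a calcineurin inhibitor induced by calcineurin and NFAT, rose by 1.68 (adjusted p = 0.000515), and the kinase subunit Pik3cb by 0.54 (adjusted p = 0.00696). The phosphatase Ptpn11, the p38 kinase Mapk14 and the phospholipase Plcg1, which binds KDR directly, fell by 0.53, 0.52 and 0.50 (adjusted p = 0.0153, 0.00249 and 0.00378). These genes act in many heart cells and not in endothelium alone. The counts fell to 4 higher and 4 lower without Ctrl replicate 1, to 5 and 5 without Ctrl replicate 2 and to 5 and 3 without Ctrl replicate 3, and 6 were higher without cKO replicate 3. With Ctrl replicate 1 and cKO replicate 3 left out together, 3 were higher and 3 lower.

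Of 13 genes of sprouting endothelium tested, 3 fell (23.1%) and 2 rose (15.4%), with a median log2 fold change of -0.14. These shares are near the 17.0% and 16.3% of all genes. Apln, the tip cell peptide apelin, measured 1.27, 2.81 and 2.02 FPKM in the Ctrl hearts and 0.244, 0.938 and 0.480 FPKM in the cKO hearts, without overlap (log2 fold change -0.96, limma adjusted p = 0.0190). Dll4, the Notch ligand of tip cells and arteries, fell by 0.56 (adjusted p = 0.00629), and Igfbp3, which binds insulin-like growth factors, by 0.27 (adjusted p = 0.0411). The basement membrane collagens Col4a2 and Col4a1, which other heart cells also make, rose by 0.71 and 0.65 (adjusted p = 0.0225 and 0.0376). Neither collagen kept its call without Ctrl replicate 1, Ctrl replicate 2, cKO replicate 1 or cKO replicate 2, and the count of lower genes was 1 without Ctrl replicate 3, cKO replicate 1 or cKO replicate 3. With Ctrl replicate 1 and cKO replicate 3 left out together, 1 was higher and 2 were lower.

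Vegfa is a textbook target of hypoxia-inducible factors, so genes of oxygen sensing were examined beside it. Of 25 tested, 6 rose (24.0%) and 7 fell (28.0%), against 16.3% and 17.0% of all genes, with a median log2 fold change of -0.15. Hif1a, the regulated subunit of HIF-1, measured 8.45, 8.59 and 8.25 FPKM in the Ctrl hearts and 12.8, 13.7 and 12.8 FPKM in the cKO hearts, without overlap (log2 fold change 0.58, limma adjusted p = 0.00176, named here outside the naming rule after its value was seen). Epas1, the subunit HIF-2α that is abundant in endothelium, fell by 0.86 (adjusted p = 0.00183). The oxygen-sensing hydroxylase Egln1 and the mitophagy receptor Bnip3 fell by 1.04 and 1.36 (adjusted p = 0.00148 and 0.0160). Ero1l, an oxidase of protein folding, the glucose transporter Slc2a1 and the glycolytic enzyme Pgk1 rose by 1.22, 1.04 and 0.79 (adjusted p = 0.000184, 0.00365 and 0.00234). The number of lower genes was 5 without cKO replicate 1 and 2 to 4 without any other single heart, and the number of higher genes was 5 without any single heart. With Ctrl replicate 1 and cKO replicate 3 left out together, 2 were lower and 5 higher.

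**Figure D5:**
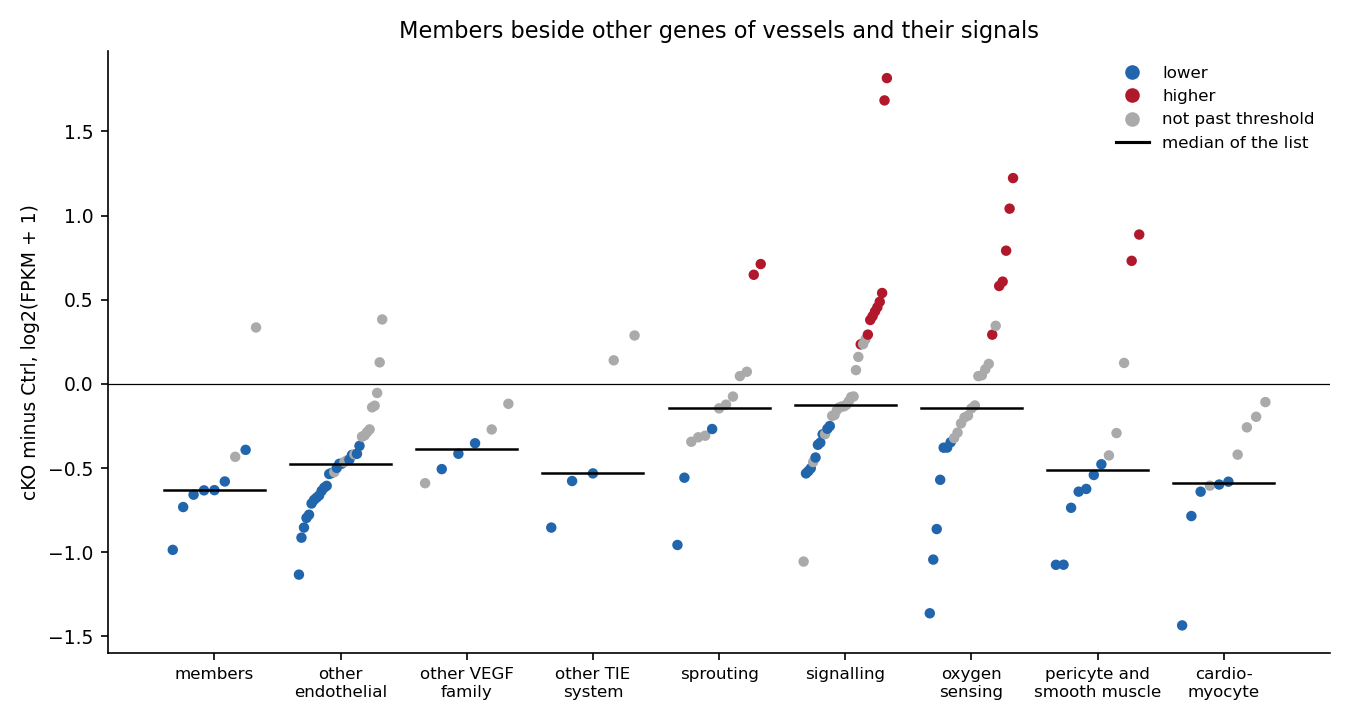
Log2 fold change of cKO against Ctrl on the log2(FPKM + 1) scale for each tested gene of 9 lists, sorted within a list; blue is lower and red higher at an adjusted p under 0.05, grey did not pass, and the horizontal line is the list's median. The described genes (median -0.63) and the other endothelial genes (median -0.47) lie mostly below 0, whereas signalling (-0.13) and oxygen sensing (-0.15) hold genes on both sides.

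The protein-coding genes whose profile over the 6 hearts was nearest that of each ligand were sought among 10166 genes averaging at least 1 FPKM, by the root mean square difference of centred log2(FPKM + 1) values. For Angpt1 they were Kcnj3 (0.140), a potassium channel subunit prominent in atria, Cytl1 (0.140) and the matrix gene Efemp1 (0.190). Kcnj3 measured 14.6, 9.33 and 11.2 FPKM in the Ctrl hearts and 3.31, 2.93 and 7.69 FPKM in the cKO hearts, with the highest heart of each group the same as for Angpt1. Because all these genes were picked for nearness of profile, hearts shared with a ligand follow from the choice and are not separate evidence. For Vegfa they were Mrm3 (0.0791), Tspyl4 (0.0952) and Mlst8 (0.110), each highest in cKO replicate 2. For Vegfb they were Cbr4 (0.0148), Cc2d2a (0.0236) and Ndrg2 (0.0250). Ndrg2 measured 455, 480 and 445 FPKM in the Ctrl hearts and 346, 347 and 360 FPKM in the cKO hearts. For Angpt2, whose own values hardly leave the pseudocount, the nearest were Edn1 (0.0160), Tnnc1 (0.0250) and Hist1h1e (0.0369), none of which passed the threshold.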

How the data were processed

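Poly-A RNA of 6 hearts was sequenced as paired ends. Per the submitters' processing notes, the authors aligned reads with HISAT2 2.0.5, counted them per gene with featureCounts 1.5.0-p3, tested them with DESeq2 (1.16.1 in these notes, another version in the study's methods), and deposited FPKM values for 54532 genes, the only unit analysed. The deposited gene length, an other gene-level value, was taken as given. The submitters' processing notes name mm9, but of 54409 gene identifiers shared with GENCODE M21 all lie on the same chromosome and 53499 have the same start and end, including the 10 genes described, so coordinates are GRCm38. Strand use in counting was not stated.

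FPKM times gene length gave whole reads for 100% of values (within 0.01 read), from which depth and reads were recovered. The deposited values implied library sizes of 0.913 to 0.980 times these totals in Ctrl and 1.06 times in cKO, so they had been scaled between samples. The 12944 genes averaging at least 0.5 FPKM were tested as log2(FPKM + 1) with limma 3.58.1 in R 4.3.3 (eBayes with trend, no covariates, two-sided), Benjamini-Hochberg threshold 0.05. The pseudocount understates changes of low genes. The test was checked on simulated data. Changes there were larger than most of those of the described genes, fewer genes changed, and hearts of a group did not differ in tissue or sex. That check therefore does not measure how reliable the calls of single genes are here. Single values were compared by exact permutation, two-sided, with a smallest p of 0.1. Groups and replicate numbers came from the titles, and each library was taken as a heart of its own; p-values measure the spread between these samples. Errors given as ± are SD.

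The 10 genes and all gene lists were chosen with earlier results of these data known. Named were the 10 genes, Mrps5, all genes of the VEGF and TIE lists, in each other list up to 3 higher and 3 lower genes with the largest change past the threshold (or the largest change where none passed) and the most abundant gene of each marker list, and the 3 nearest profiles of each ligand. Ptprb, Nos3, Nfatc1, Flt4, Adm, Plvap and Cytl1 can count in more than 1 place. Alternatives were a pseudocount of 0.1, no filter, a filter at 1 FPKM, scaling by median of ratios or to the total without mtDNA-encoded genes, no trend, voom on recovered reads, the replicate number as a block, Ctrl replicate 1 and cKO replicate 3 left out together, and each heart left out. Promoters came from RefSeq (GRCm38.p6). Angpt1 and Cdh5 overlap antisense genes of at most 0.211 FPKM on average.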

Additional observations from a re-analysis of the deposited data

How the results depend on the processing

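Over 15 alternatives and 9 genes (135 fits), 0 changed direction, 10 lost a call (8 of Angpt1, 1 each of Vegfb and Flt1) and 1 gained it (Kdr without cKO replicate 2). Tek, Tie1, Vegfa, Pecam1 and Cdh5 kept direction and side of the threshold in all 15. Of the 10 genes, 5 to 7 were lower and 0 higher under every alternative.

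Over all genes, 2110 were higher and 2205 lower. Leaving out each heart gave 1396 to 1977 higher and 1423 to 2011 lower genes, with 1423 lower without Ctrl replicate 2, and 1432 lower and 1396 higher without Ctrl replicate 3. Leaving out Ctrl replicate 1 and cKO replicate 3 together gave 995 higher and 1019 lower. Scaled without mtDNA-encoded genes, 2649 were higher and 1621 lower, so 62.0% of calls were higher against 48.9%. The median of all genes moved from -0.02 to 0.05 under that scaling.

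Without the filter, 26855 genes were tested, and the lower counts were 0 for the VEGF family, 12 for other endothelial genes, 1 for sprouting genes and 3 for oxygen sensing, with 0 sprouting genes higher. Median-of-ratios scaling left 1 of the VEGF family lower and made 1 gene of the TIE system higher. Scaling without mtDNA-encoded genes gave 1 lower for the VEGF family, 4 for signalling, 12 for other endothelial genes and 3 for oxygen sensing, and 1 higher for the TIE system. Without the trend 1 gene of the TIE system was higher. With Ctrl replicate 1 and cKO replicate 3 left out, which leaves 2 hearts a group, 0 of the VEGF family, 3 of signalling, 9 of other endothelial genes and 2 of oxygen sensing were lower, and 3 of signalling and 1 of sprouting were higher. Apart from the settings' own construction (fewer hearts, more genes tested), the cause was not tested.

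Leaving out each heart, the ranges were 0 to 3 lower for the VEGF family, 0 to 1 higher for the TIE system, 4 to 9 higher and 3 to 8 lower for signalling, 13 to 18 lower for other endothelial genes, 0 to 2 higher and 1 to 4 lower for sprouting, and 2 to 5 lower for oxygen sensing. The same fits moved the log2 ratio of Flt1 to Kdr between -0.54 and 0.17, of Kdr to the endothelial pair between -0.12 and 0.48, and of Flt1 to the pair between -0.12 and 0.087 (0.087 without Ctrl replicate 3, 0.055 without cKO replicate 2).

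The replicate numbers did not pair the hearts: across 12944 genes, what a heart deviated by from its group mean correlated at -0.06, 0.17 and -0.01 with the heart of the same number. With the replicate block 1874 genes were higher and 1982 lower, 7 of the 10 described genes were lower, 1 of the VEGF family was lower and 0 sprouting genes were higher.

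Angpt2 was limited by depth, at 15 to 47 reads per heart.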
